A study of Rattus norvegicus with 18 samples.

Results

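The genes described here are those of oxidative phosphorylation in rat pXEN cells, extraembryonic endoderm precursor cells cultured from blastocysts. They were chosen by symbol alone: names that begin with Mt-, with Nduf followed by a, b, c, s or v and a number, with Uqcr, Cox4 to Cox8 or Atp5, and the genes Sdha, Sdhb, Sdhc and Sdhd, leaving out symbols ending in -ps (1 row). Of 28695 rows in the count files, 99 matched: 13 mitochondrially encoded rows (Mt-) and 86 rows of the nuclear genome. The 13 Mt- rows hold 7 subunits of complex I, 1 of complex III, 3 of complex IV and 2 of complex V. The 86 nuclear rows hold 38 named for complex I, 4 for complex II, 8 for complex III, 18 for complex IV and 18 for complex V. The nuclear groups follow the gene names, and so Ndufa4, which is known in human and mouse cells as a complex IV protein, is counted with complex I, and Atp5s, a factor named for the ATP synthase and not one of its core subunits, with complex V.

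In oxidative phosphorylation, complexes I to IV pass electrons from NADH and succinate to oxygen. Complexes I, III and IV also pump protons out of the mitochondrial matrix, and complex V, the ATP synthase, uses the returning protons to make ATP. Mitochondrial DNA encodes core subunits of complexes I, III, IV and V, and the nucleus encodes the rest, including the whole of complex II. Mitochondrial genes are transcribed as long precursors from each of the DNA strands and then cut into single messengers. Mt-nd6 is known as the only protein gene whose messenger is made from the strand opposite to all the others.

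The study compared pXEN cells by shape, with 3 libraries in each of 6 groups, from cells of the WKY rat strain labelled female and grown to passages 32 to 51. Serum-free vesicles and serum vesicles, as the labels call them, were made with CHIR99021, an inhibitor of the kinase GSK3. The labels' protocol for vesicles, taken here to describe the serum-free ones, names N2B27 medium with 10 ng/ml mouse LIF and 3 µM CHIR99021 and no feeder cells, PD0325901 or Y-27632, and it leaves the dose for serum vesicles unclear. Vacuolated cells came as sorted and as unsorted cells treated with 0.5 µM CHIR99021, with the sorting gate not described, and as unsorted cells treated with 14% BCS, an abbreviation that the labels do not spell out. Normal cells, from routine culture, are the common reference. The samples of a condition were prepared independently, but nothing says that they were separate derivations, so p-values measure only the spread between these samples.

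Depth ran from 4050722 to 12074939 counts per library, of which a pair of rows with clone-style names that the files do not annotate took a large share. It was 53.6 to 61.1% in serum-free vesicles, 51.0 to 60.8% in serum vesicles, 45.8 to 53.4% in sorted cells, 44.3 to 52.2% in unsorted CHIR99021 cells, 45.2 to 49.3% in BCS cells and 37.6 to 43.6% in normal cells. Levels below are given in CPM, counts scaled to a common effective library size by TMM. Tests are edgeR quasi-likelihood tests on the counts with Benjamini-Hochberg adjustment over 11503 genes. Markers of the cell identity were present in every library, with summed levels of 5223 to 6182 CPM in serum-free vesicles, 4613 to 5059 CPM in serum vesicles, 9315 to 12260 CPM in sorted cells, 6957 to 8784 CPM in unsorted CHIR99021 cells, 9904 to 13030 CPM in BCS cells and 6970 to 7594 CPM in normal cells. Of the 12 markers 2 were called higher and 6 lower in serum-free vesicles, 1 and 6 in serum vesicles, 6 and 2 in sorted cells, 0 and 3 in unsorted CHIR99021 cells, and 7 and 1 in BCS cells. The pluripotency factor Pou5f1 averaged 0.746 CPM in serum-free vesicles and 1.25 CPM in serum vesicles, against 118 CPM in normal cells, and the endoderm factor Gata6 15.9 and 13.8 CPM, against 80.1 CPM. Foxa2, another endoderm factor, was higher in both, with 44.6 and 47.0 CPM, against 24.3 CPM in normal cells. Feeder fibroblast markers summed to between 1.06 and 15.5 CPM and blood markers to between 0.461 and 5.83 CPM, with Postn, Dcn and Hbb at 0 counts in every library. The part of the identity markers in the results was not tested.

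Messengers of the mitochondrial genome were higher in vesicles and in sorted vacuolated cells, while the sum of nuclear subunit messengers lay above normal cells in serum-free vesicles and below them in serum vesicles. The summed level of the 13 Mt- rows was 35740, 49400 and 47310 CPM in the 3 serum-free vesicle libraries, 36180, 40590 and 41180 CPM in serum vesicles, and 47720, 35600 and 34870 CPM in sorted cells. It was 21110, 20990 and 14770 CPM in unsorted CHIR99021 cells, 21660, 16340 and 21820 CPM in BCS cells, and 16890, 15260 and 16860 CPM in normal cells. Every library of the first 3 groups lay above every library of the other 3 groups. The 86 nuclear rows summed to 5626, 5984 and 6136 CPM in serum-free vesicles, 4616, 4344 and 3848 CPM in serum vesicles, and 5272, 4200 and 4869 CPM in sorted cells. Their sum was 4861, 5116 and 4779 CPM in unsorted CHIR99021 cells, 4452, 4601 and 4571 CPM in BCS cells, and 5311, 5026 and 5319 CPM in normal cells. On this sum all 3 serum-free vesicle libraries lay above all normal ones, and all 3 libraries of serum vesicles and of BCS cells lay below them. In bulk samples, fewer cells of a type and less RNA per cell cannot be told apart.

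The ratio of Mt- to nuclear counts within a library does not depend on the scaling between libraries. It was 6.35, 8.26 and 7.71 in serum-free vesicles, 7.84, 9.34 and 10.7 in serum vesicles, and 9.05, 8.48 and 7.16 in sorted cells. It was 4.34, 4.10 and 3.09 in unsorted CHIR99021 cells, 4.87, 3.55 and 4.77 in BCS cells, and 3.18, 3.04 and 3.17 in normal cells. On the log2 scale the mean ratio exceeded that of normal cells by 1.24 in serum-free vesicles, 1.56 in serum vesicles and 1.39 in sorted cells, and no library overlapped the normal ones. The difference was 0.48 for BCS cells, again without overlap, and 0.28 for unsorted CHIR99021 cells, whose libraries overlapped the normal ones. Sorted cells exceeded unsorted CHIR99021 cells by 1.11 without overlap, and serum-free vesicles differed from serum vesicles by -0.32 with overlap. These sums over chosen rows are descriptions and were not tested. All comparisons with normal cells share the same 3 normal libraries.

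**Figure D1:**
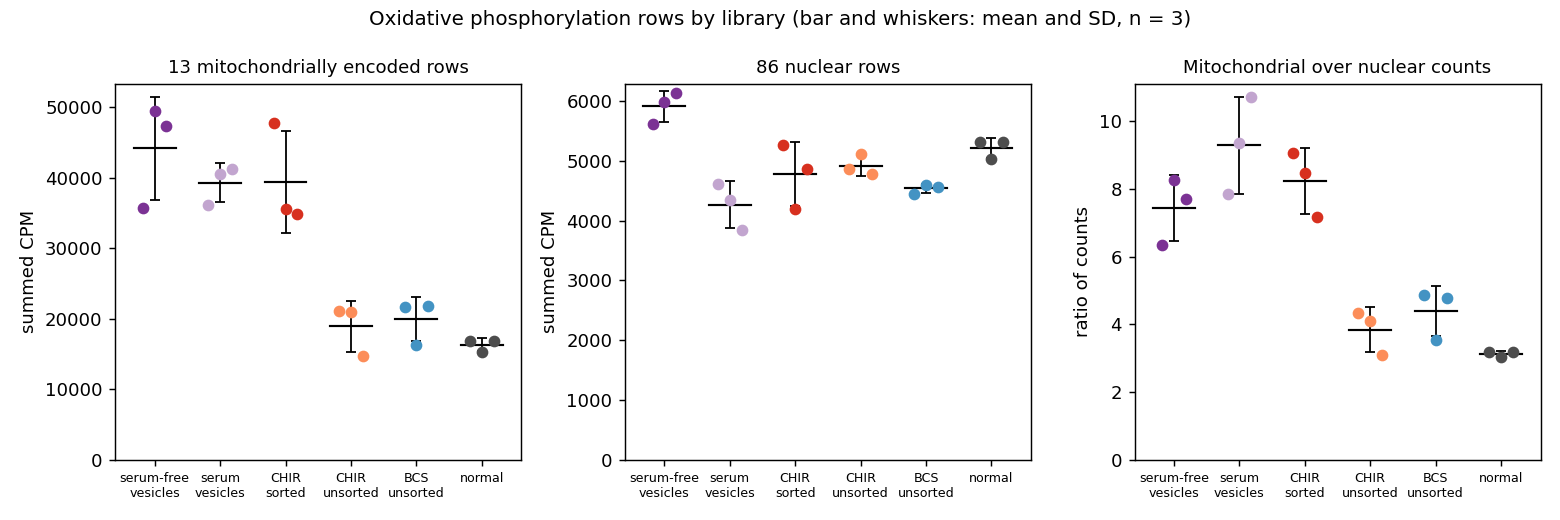
Summed CPM of the 13 Mt- rows, summed CPM of the 86 nuclear rows, and the ratio of their counts, for each of the 18 libraries by group (points), with the group mean and SD. Mt- sums in serum-free vesicles, serum vesicles and sorted cells all lie above the other groups, whereas nuclear sums of all libraries stay between 3848 and 6136 CPM.

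Single Mt- rows were tested with all other genes, and all 13 passed the filter on low counts. In serum-free vesicles 12 of 13 were higher and 0 lower than in normal cells, where 57.7% of all tested genes were called, 30.2% higher and 27.5% lower. In serum vesicles 12 were higher and 0 lower, with 60.4% of all genes called, 31.7% higher and 28.8% lower. In sorted cells 11 were higher and 0 lower, with 25.9% of all genes called, 14.4% higher and 11.5% lower. The median log2 fold change of the 13 rows was 1.72 in serum-free vesicles, 1.53 in serum vesicles and 1.44 in sorted cells, beside medians of 0.03, 0.06 and 0.01 over all genes tested. The share of counts taken by the dominating pair of rows was also higher in these groups, and its part in the result was not tested. With TMM scaling computed without that pair and without the Mt- rows, the calls of Mt- rows were again 12, 12 and 11, all higher.

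Among subunits of complex I, the proton-pumping NADH dehydrogenase, Mt-nd4 had the highest fold change of the Mt- rows. Its level was 33.1, 38.1 and 40.3 CPM in serum-free vesicles, 37.9, 43.6 and 32.7 CPM in serum vesicles, and 44.5, 44.6 and 37.6 CPM in sorted cells. It was 10.8, 11.7 and 6.15 CPM in unsorted CHIR99021 cells, 7.29, 5.40 and 11.1 CPM in BCS cells, and 2.15, 3.07 and 4.84 CPM in normal cells. All 15 libraries of the treated groups lay above all normal ones, though the normal group held only 60 counts of this row in all. The log2 fold change was 3.44 ± 0.28 (SE) in serum-free vesicles, 3.48 ± 0.28 in serum vesicles and 3.62 ± 0.27 in sorted cells (edgeR adjusted p = 2.31e-10, 2.02e-10 and 2.12e-09). Mt-nd4l, another complex I subunit, overlaps Mt-nd4 in the mitochondrial genome, as Mt-atp8 overlaps Mt-atp6. How the authors' counting split such reads is not given in the sources used here, so the values of these 4 rows are uncertain. Mt-nd4 also had by far the lowest level of the Mt- rows. In normal cells it averaged 3.36 CPM, against 137 CPM for Mt-nd4l and 1340 CPM for Mt-nd1. Its row may hold little of its messenger, so its fold change may not describe that messenger as a whole.

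Mt-nd2, a membrane subunit of complex I, had 2292, 2375 and 3263 CPM in serum-free vesicles, 3381, 3239 and 4290 CPM in serum vesicles, 3133, 1829 and 2555 CPM in sorted cells, and 582, 534 and 546 CPM in normal cells. No library of the first 3 groups came near the normal range. The log2 fold changes were 2.25, 2.71 and 2.18 (edgeR adjusted p = 1.62e-07, 1.44e-08 and 2.79e-06). Mt-nd5, which forms part of the proton path of complex I, averaged 4651 CPM in serum-free vesicles, 3855 CPM in serum vesicles and 2919 CPM in sorted cells, against 1144 CPM in normal cells, with log2 fold changes of 2.02, 1.75 and 1.35. Mt-nd3 had the smallest fold change among the complex I rows called in sorted cells (log2 fold change 0.64). Its call there was lost without normal library 1 or 2 (edgeR adjusted p = 0.0719 and 0.178) and without any 1 of the sorted libraries (edgeR adjusted p from 0.0624 to 0.124), and with unstranded counts (0.083) or passage as a covariate (0.0537). Its call in serum vesicles was lost without normal library 2 or serum vesicle library 2 (edgeR adjusted p = 0.0638 and 0.0653).

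Mt-cyb, the only mitochondrially encoded subunit of complex III, had 3582, 5166 and 5261 CPM in serum-free vesicles, 3911, 4007 and 4589 CPM in serum vesicles, and 4216, 3136 and 3148 CPM in sorted cells. It had 1582, 1535 and 1154 CPM in unsorted CHIR99021 cells, 1570, 1301 and 1613 CPM in BCS cells, and 1311, 1216 and 1301 CPM in normal cells. The vesicle and sorted libraries were all above the others. Its log2 fold change against normal cells was 1.87 in serum-free vesicles, 1.71 in serum vesicles and 1.46 in sorted cells (edgeR adjusted p = 4.87e-10, 1.91e-09 and 4.27e-07).

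Mt-co1, the catalytic subunit of complex IV, had 11140, 15560 and 12960 CPM in serum-free vesicles, 10940, 11840 and 11550 CPM in serum vesicles, 17340, 14610 and 12650 CPM in sorted cells, and 7330, 6745 and 7193 CPM in normal cells. It rose in all 3 groups but by less than most other Mt- rows, with log2 fold changes of 0.90, 0.69 and 1.07 (edgeR adjusted p = 2.63e-05, 0.000477 and 2.16e-05). Its share of all Mt- counts averaged 30.02% ± 2.29 in serum-free vesicles, 29.1% ± 1.09 in serum vesicles, 37.9% ± 2.74 in sorted cells and 43.4% ± 0.766 in normal cells (SD, n = 3 each). As a group, the 3 complex IV rows summed to 2.35 times the normal level in serum-free vesicles, 1.94 times in serum vesicles and 2.21 times in sorted cells. The same ratio was 3.03, 3.02 and 2.65 for the 7 complex I rows, 3.66, 3.27 and 2.74 for Mt-cyb, and 3.61, 3.45 and 2.96 for Mt-atp6 and Mt-atp8, the 2 rows of complex V. Mt-atp8 was not called in sorted cells (log2 fold change 0.44, edgeR adjusted p = 0.293). Its calls in vesicles were lost without normal library 2, normal library 3 or library 3 of the vesicles (edgeR adjusted p from 0.0551 to 0.0658 in serum-free vesicles and from 0.0509 to 0.0562 in serum vesicles).

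**Figure D2:**
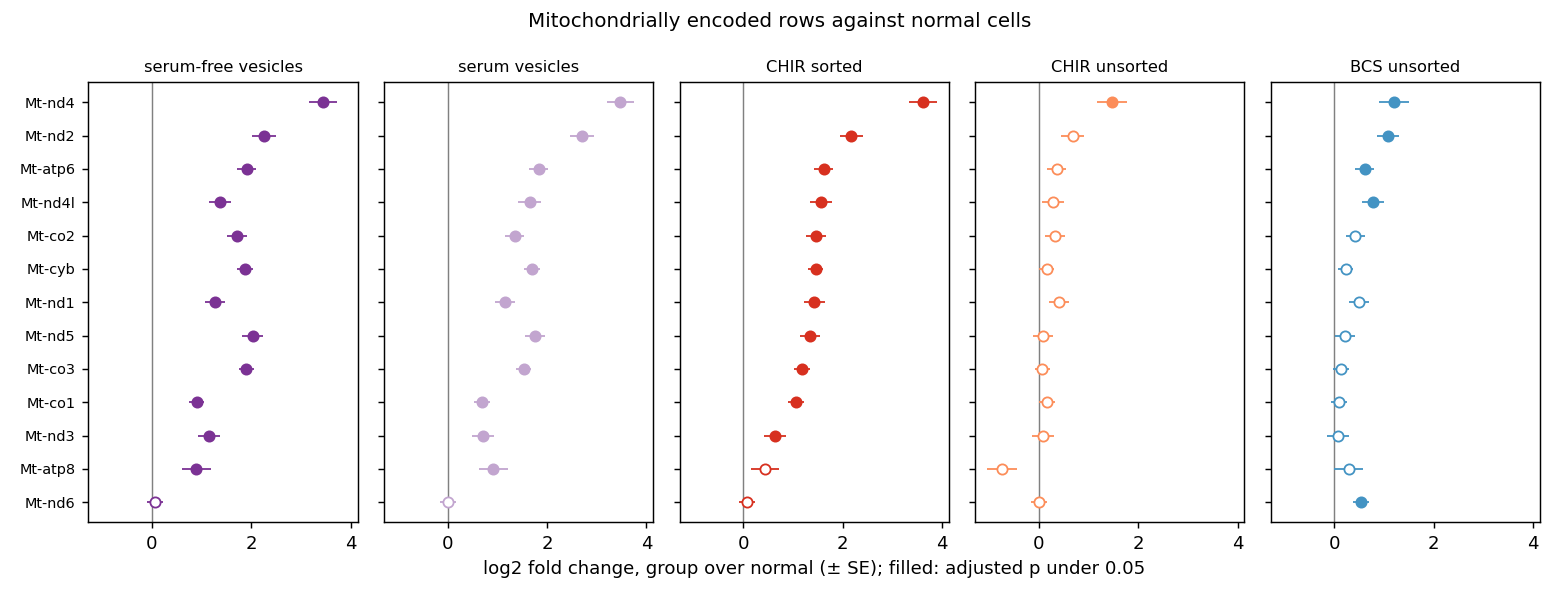
Log2 fold change (± SE) of each of the 13 Mt- rows against normal cells in 5 panels, 1 for each other group; filled points passed the edgeR test. Mt-nd6 lies near 0 in vesicles and sorted cells while the other rows lie to the right. In unsorted CHIR99021 cells 1 point is filled and in BCS cells 5 are.

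Mt-nd6, a complex I subunit and the row of the opposite strand, did not pass the test in vesicles or sorted cells. Its level was 540, 715 and 455 CPM in serum-free vesicles, 516, 671 and 472 CPM in serum vesicles, and 662, 534 and 537 CPM in sorted cells. It was 545, 620 and 492 CPM in unsorted CHIR99021 cells, 948, 647 and 795 CPM in BCS cells, and 546, 524 and 574 CPM in normal cells. The libraries of vesicles, sorted cells and unsorted CHIR99021 cells overlapped the normal ones, and those of BCS cells lay above them. The log2 fold change was 0.06 in serum-free vesicles, 0.01 in serum vesicles and 0.08 in sorted cells (edgeR adjusted p = 0.789, 0.947 and 0.779). Its direction flipped when single libraries were left out. The other 12 rows together stood at 2.76, 2.46 and 2.46 times their normal level in these groups. The log2 ratio of Mt-nd6 to the sum of the other 12 rows averaged -6.27 ± 0.37 in serum-free vesicles, -6.14 ± 0.27 in serum vesicles, and -6.06 ± 0.08 in sorted cells. It averaged -5.05 in unsorted CHIR99021 cells, -4.59 in BCS cells and -4.85 ± 0.05 in normal cells (SD, n = 3 each).

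The files also count reads on the strand opposite to each row, which at Mt-nd6 is the strand of the other 12 messengers. There the level was 923, 1135 and 1508 CPM in serum-free vesicles, 769, 878 and 1280 CPM in serum vesicles, 894, 510 and 572 CPM in sorted cells, and 204, 228 and 193 CPM in normal cells. All libraries of the first 3 groups lay above the normal range, with group means 5.72, 4.69 and 3.17 times that of normal cells. At Mt-nd5, where the opposite strand is the one that Mt-nd6 is made from, the opposite-strand level was 1861, 2102 and 1514 CPM in serum-free vesicles, 1671, 2097 and 1491 CPM in serum vesicles, 2033, 1514 and 1615 CPM in sorted cells, and 1551, 1780 and 1685 CPM in normal cells. These libraries overlapped between all groups. Opposite-strand reads were 7.42% ± 0.716 of the reads of the Mt- rows in serum-free vesicles, 7.41% ± 0.343 in serum vesicles, 6.97% ± 0.373 in sorted cells and 12.9% ± 1.29 in normal cells (SD, n = 3 each). The share averaged 11.06% in unsorted CHIR99021 cells and 13.53% in BCS cells. The lower shares did not go with a lower summed level. Summed opposite-strand levels averaged 3498 CPM in serum-free vesicles, 3152 CPM in serum vesicles, 2963 CPM in sorted cells and 2413 CPM in normal cells. All vesicle libraries lay above the normal ones on this sum, and sorted libraries overlapped them. Single rows went both ways. In serum-free vesicles the opposite-strand mean was 5.72 times that of normal cells at Mt-nd6 and 1.43 times at Mt-nd1. It was 0.42 times at Mt-nd3 and 0.78 times at Mt-cyb. Without Mt-nd5 and Mt-nd6 the share averaged 1.24% in serum-free vesicles, 1.19% in serum vesicles, 1.58% in sorted cells and 3.52% in normal cells.

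**Figure D3:**
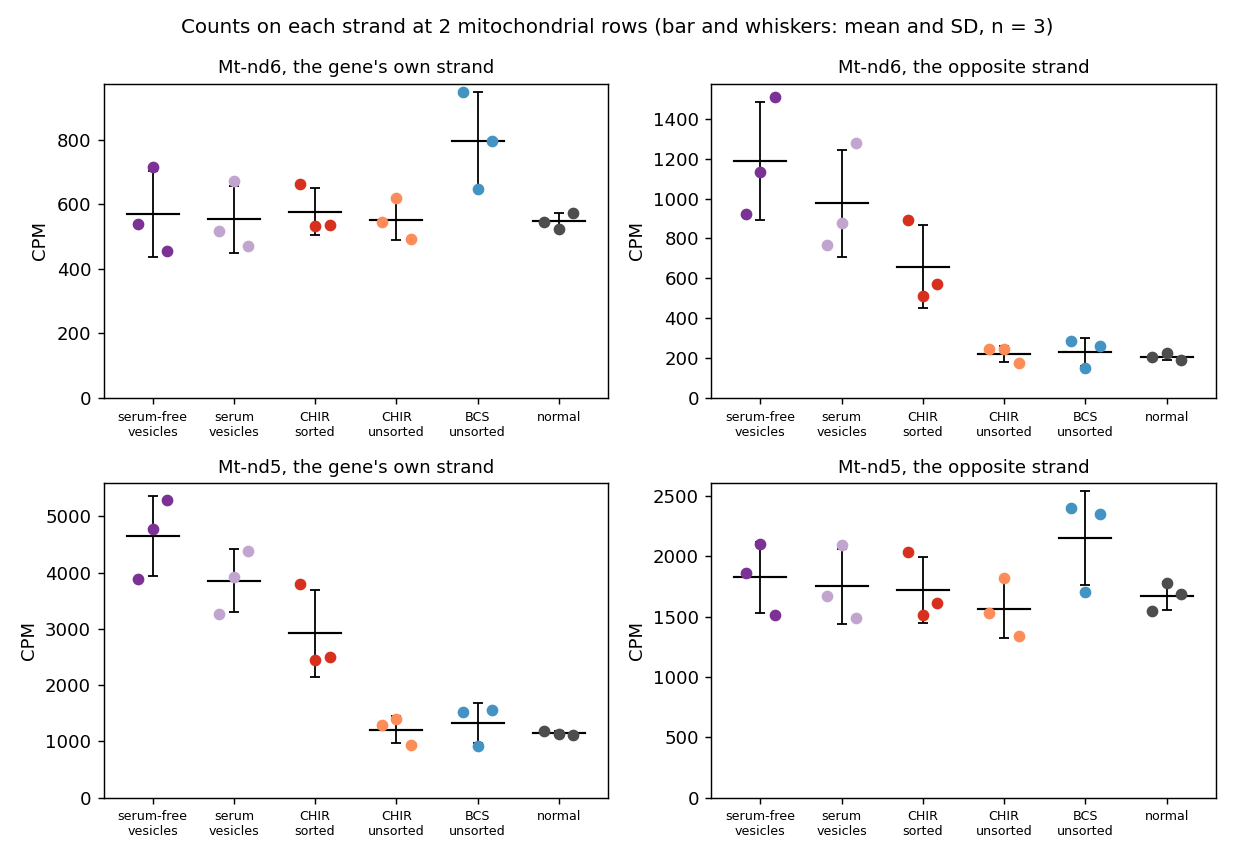
CPM on the row's own strand and on the opposite strand at Mt-nd6 and Mt-nd5 in each library, by group. At Mt-nd6 the own strand overlaps between normal cells and vesicles or sorted cells while the opposite strand is higher in these, and at Mt-nd5 the pattern is the other way round.

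The result for Mt-nd6 depended on counting by strand. With unstranded counts, which add the reads of the other strand, Mt-nd6 was called higher in serum-free vesicles, serum vesicles and sorted cells, with log2 fold changes of 1.13, 0.91 and 0.66 (edgeR adjusted p = 2.65e-06, 4.16e-05 and 0.00451). The median log2 fold change of the 13 rows was then 1.23, 1.30 and 1.28.

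Nuclear subunits moved in both directions. Of 86 nuclear rows 75 passed the filter on low counts. In serum-free vesicles 25 of the 75 were higher and 8 lower than in normal cells, shares to be read against the 30.2% and 27.5% over all genes. The median log2 fold change was 0.16. In serum vesicles 10 were higher and 30 lower, against 31.7% and 28.8% over all genes, with a median of -0.27. In sorted cells 6 were higher and 13 lower, against 14.4% and 11.5%, with a median of -0.12 and with 29 calls in either direction when sorted and normal cells were fitted alone.

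By complex, the higher calls in serum-free vesicles were 10 of 34 tested rows of complex I, 1 of 4 of complex II, 2 of 8 of complex III, 5 of 12 of complex IV and 7 of 17 of complex V, and the lower calls were 6, 1, 1, 0 and 0. In serum vesicles the higher calls were 3, 0, 1, 3 and 3 and the lower calls 15, 3, 3, 3 and 6. In sorted cells the higher calls were 1, 0, 2, 1 and 2 and the lower calls 9, 2, 1, 0 and 1. Over all genes 30.2% were higher and 27.5% lower in serum-free vesicles, 31.7% and 28.8% in serum vesicles, and 14.4% and 11.5% in sorted cells. The higher calls of complexes I, II and III in serum-free vesicles were near that share. Summed over each complex, serum-free vesicles stood at 1.00, 1.01 and 1.00 times the normal level for complexes I, II and III and at 1.29 and 1.201 times for complexes IV and V. The row Atp5f1b alone held 1326 of the 2670 CPM of complex V in serum-free vesicles, against 1024 of 2223 CPM in normal cells. Serum vesicles were below normal cells on every complex, between 0.742 times for complex II and 0.871 times for complex IV.

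**Figure D4:**
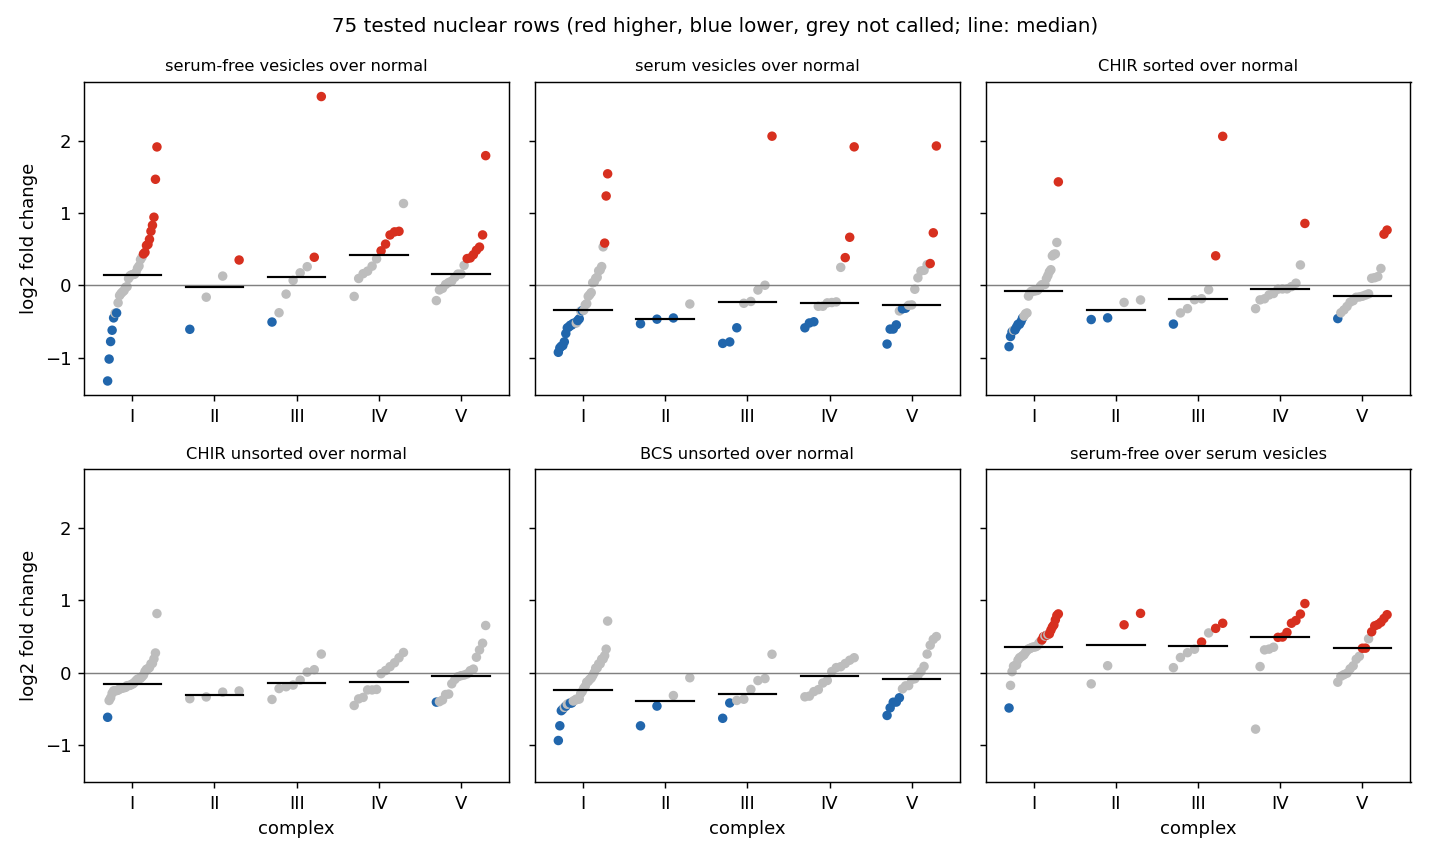
Log2 fold changes of the 75 tested nuclear rows by complex, in 6 comparisons; red points were called higher, blue points lower, and grey points were not called. Among comparisons with normal cells, serum-free vesicles have the most red points (25) and serum vesicles the most blue ones (30). Over all tested genes 30.2% were higher in serum-free vesicles and 28.8% lower in serum vesicles, and the 25 of 75 are near the first of these shares.

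Ndufa3, Uqcrb, Cox5a, Atp5pf and Atp5mc3 were called higher, and Ndufa9, Ndufa10, Ndufa11, Sdha and Uqcrc1 lower, in vesicles of both kinds and in sorted cells. Each set is 6.67% of the 75 nuclear rows, against 8.86% of all tested genes called higher and 7.94% called lower in all 3 comparisons, so such calls were no more frequent among these rows. The 10 were picked out after their values were seen, and the 3 comparisons share the normal libraries. The sequences around the starts of 4 of them, from RefSeq on the rat build GRCr8, are given to show what lies at the starts of genes that rose (Ndufa3 and Atp5pf) and of genes that fell (Ndufa9 and Uqcrc1). Capitals mark matches to motifs of regulators known to act on genes for respiration: GCGC followed by any base and TGCGC for NRF1, CCGGAAG for GABPA and AAGATGGC for YY1, searched on both strands. They lie at chr1:74515509-74515808, chr11:37375052-37375351, chr4:161374121-161374420 and chr8:118467973-118468272, the first 3 on the minus strand and Uqcrc1 on the plus strand, and each holds 250 bases before the start and 50 after it.
Ndufa3: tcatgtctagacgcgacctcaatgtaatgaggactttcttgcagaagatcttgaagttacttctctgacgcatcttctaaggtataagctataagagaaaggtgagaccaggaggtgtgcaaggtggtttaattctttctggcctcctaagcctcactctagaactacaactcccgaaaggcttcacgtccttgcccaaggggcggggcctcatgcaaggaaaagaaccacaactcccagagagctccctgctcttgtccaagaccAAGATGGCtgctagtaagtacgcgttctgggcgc
Atp5pf: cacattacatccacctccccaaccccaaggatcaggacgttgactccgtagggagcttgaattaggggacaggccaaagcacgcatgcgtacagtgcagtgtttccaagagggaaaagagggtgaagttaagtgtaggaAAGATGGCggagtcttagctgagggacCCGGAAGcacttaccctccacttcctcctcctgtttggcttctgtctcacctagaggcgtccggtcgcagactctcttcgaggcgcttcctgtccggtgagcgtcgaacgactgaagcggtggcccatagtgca
Ndufa9: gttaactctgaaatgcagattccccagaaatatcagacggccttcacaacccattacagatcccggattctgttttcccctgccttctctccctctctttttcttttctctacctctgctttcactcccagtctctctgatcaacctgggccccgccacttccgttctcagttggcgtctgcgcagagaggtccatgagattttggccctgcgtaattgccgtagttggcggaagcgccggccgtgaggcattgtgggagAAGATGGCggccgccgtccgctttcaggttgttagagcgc
Uqcrc1: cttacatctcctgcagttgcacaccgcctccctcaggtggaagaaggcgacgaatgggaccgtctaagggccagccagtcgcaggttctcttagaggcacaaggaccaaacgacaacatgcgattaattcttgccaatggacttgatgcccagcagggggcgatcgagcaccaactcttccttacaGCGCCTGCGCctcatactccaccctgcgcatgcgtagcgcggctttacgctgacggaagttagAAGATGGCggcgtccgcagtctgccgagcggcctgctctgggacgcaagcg
Of the 86 nuclear rows 74 had a promoter entry. The NRF1 motif was found in 14 of them (18.9%), beside 4.25% of the 33469 promoters in the table, the GABPA motif in 19 (25.7%, beside 8.75%) and the YY1 motif in 16 (21.6%, beside 3.17%). Among the 4 genes with an entry that were higher in all 3 comparisons, 1 held the NRF1 motif, 1 the GABPA motif and 2 the YY1 motif, and among the 5 that were lower the numbers were 3, 0 and 2. The 4 printed sequences are the ones that hold the YY1 motif, while those of Cox5a and Ndufa10 held none of the motifs. The 33469 promoters were not limited to tested genes or matched for base content, and the difference in shares was not tested. A match is a description of letters and not a bound site.

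Of the 5 that were higher, Uqcrb, a small subunit of complex III, had the largest fold change. It had 29.9, 28.2 and 36.8 CPM in serum-free vesicles, 18.7, 20.2 and 26.5 CPM in serum vesicles, 25.4, 14.3 and 25.0 CPM in sorted cells, and 5.38, 5.37 and 4.69 CPM in normal cells. All libraries of the first 3 groups lay above all normal ones, and the folds against normal cells were 6.16, 4.21 and 4.20 (edgeR adjusted p = 1.77e-09, 1.06e-07 and 1.16e-06). Ndufa3, an accessory subunit of complex I, had 21.3, 23.3 and 26.8 CPM in serum-free vesicles, 22.7, 18.1 and 14.1 CPM in serum vesicles, 19.8, 15.2 and 16.2 CPM in sorted cells, and 6.28, 6.52 and 6.05 CPM in normal cells. Its log2 fold change was 1.92 ± 0.22, 1.55 ± 0.23 and 1.44 ± 0.22 (SE; edgeR adjusted p = 7.43e-08, 2.22e-06 and 4.06e-05). RefSeq holds 4 entries named as copies of Uqcrb, 4 of Atp5pf and 2 of Ndufa3, and reads shared with such copies could be lost or split, so their levels are uncertain. The same limit holds for 41 of the 86 nuclear rows. Among them are Ndufa5, Atp5mc1, Cox7b, Atp5f1b, Atp5pd, Ndufs5, Ndufb10 and Sdhc.

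Cox5a, a subunit of complex IV, has no entry named as a copy. It had 59.3, 58.9 and 73.4 CPM in serum-free vesicles, 73.6, 45.9 and 61.8 CPM in serum vesicles, and 71.1, 56.7 and 78.9 CPM in sorted cells. It had 27.5, 26.6 and 28.8 CPM in unsorted CHIR99021 cells, 33.6, 28.2 and 28.6 CPM in BCS cells, and 38.2, 41.5 and 34.4 CPM in normal cells. Vesicles and sorted cells were above all normal libraries. The log2 fold changes were 0.75, 0.67 and 0.86 (edgeR adjusted p = 0.000288, 0.000924 and 0.000298). Atp5pf, a coupling factor in the stalk of the ATP synthase, stood at log2 fold changes of 0.70, 0.73 and 0.77, and Atp5mc3, an isoform gene of the rotating c ring, at 0.49, 0.30 and 0.71. The call of Atp5mc3 in serum vesicles was lost without normal library 1 or 2 or serum vesicle library 1 or 2 (edgeR adjusted p from 0.0826 to 0.169), without the filter (0.145) and with unstranded counts (0.0526).

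Of the 5 that were lower, Ndufa9, an accessory subunit of complex I, had 11.9, 10.7 and 8.85 CPM in serum-free vesicles, 14.3, 15.6 and 13.8 CPM in serum vesicles, 16.3, 16.0 and 15.6 CPM in sorted cells, and 24.2, 28.4 and 25.6 CPM in normal cells. All normal libraries lay above all of these. The log2 fold changes were -1.33, -0.83 and -0.71 (edgeR adjusted p = 4.86e-07, 0.000168 and 0.00242). Ndufa10, another accessory subunit, had 65.5, 79.7 and 72.1 CPM in serum-free vesicles, 69.4, 72.9 and 62.0 CPM in serum vesicles, 96.3, 78.5 and 82.1 CPM in sorted cells, and 130, 130 and 114 CPM in normal cells, with log2 fold changes of -0.78, -0.87 and -0.54. Uqcrc1, a core protein of complex III, averaged lower by log2 values of -0.51, -0.78 and -0.54 (edgeR adjusted p = 0.00144, 1.13e-05 and 0.00286). Sdha, the catalytic subunit of complex II, had 38.6, 31.3 and 31.1 CPM in serum-free vesicles, 42.1, 32.2 and 38.0 CPM in serum vesicles, 39.8, 38.2 and 34.5 CPM in sorted cells, and 53.8, 48.2 and 51.3 CPM in normal cells. Its log2 fold changes were -0.61, -0.45 and -0.45, and those of Ndufa11 -0.45, -0.78 and -0.50. In sorted cells the call of Sdha was lost without normal library 1 or sorted library 3 (edgeR adjusted p = 0.0632 and 0.075) or without the filter (0.0592), and that of Ndufa11 without normal library 1 or 3 or sorted library 2 (edgeR adjusted p = 0.0661, 0.056 and 0.0715). In serum-free vesicles the call of Ndufa11 was lost without normal library 1 or vesicle library 1 (edgeR adjusted p = 0.0526 and 0.089).

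**Figure D5:**
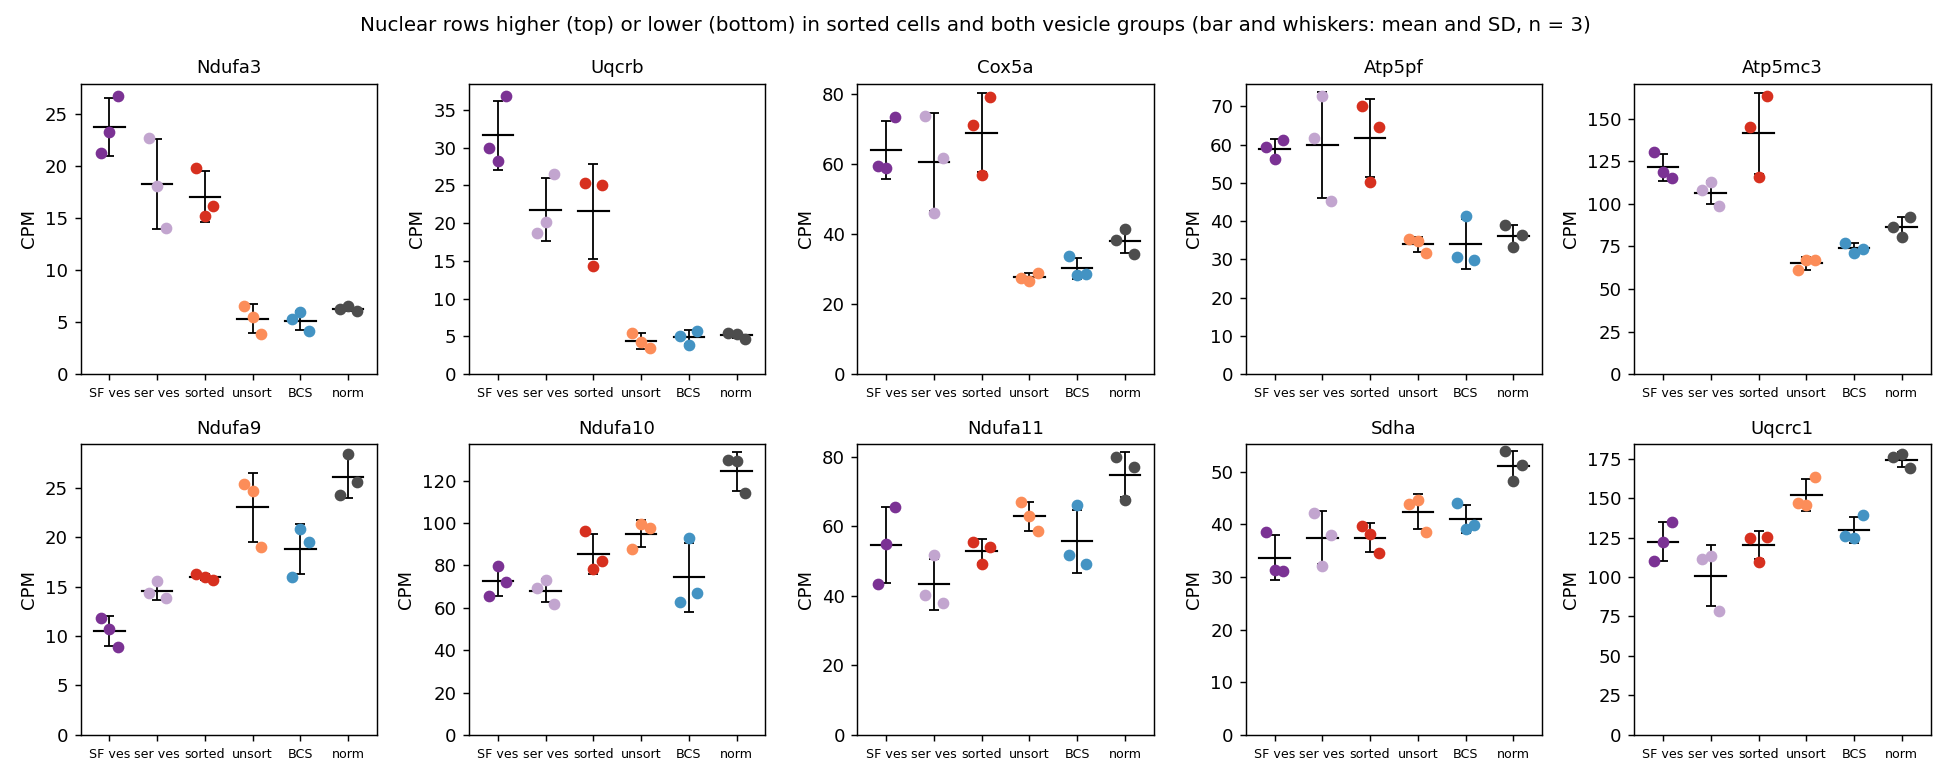
CPM in each library, by group, of the 5 nuclear genes called higher (top) and the 5 called lower (bottom) against normal cells in serum-free vesicles, serum vesicles and sorted cells. Uqcrb and Ndufa3 show the widest gaps, and Ndufa9 is below all normal libraries in both kinds of vesicle.

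Other nuclear genes changed in both kinds of vesicle. Atp5s averaged 3.56 CPM in serum-free vesicles and 4.002 CPM in serum vesicles, against 1.03 CPM in normal cells (log2 fold changes 1.80 and 1.94). These calls were lost without normal library 3 (edgeR adjusted p = 0.0524) and without serum vesicle library 3 (0.0513). Ndufb10, an accessory subunit of complex I, averaged 16.1 and 13.7 CPM, against 5.72 CPM in normal cells (1.47 and 1.24), and Ndufb11, another, 47.7 and 36.9 CPM, against 24.7 CPM (0.95 and 0.59). The call of Ndufb11 in serum vesicles was lost without serum vesicle library 1 (edgeR adjusted p = 0.0517). Ndufs5 was lower in both, by log2 values of -1.02 and -0.84. Among the lowest fold changes in serum vesicles were Ndufa5 (21.1 CPM, against 40.2 CPM in normal cells; log2 fold change -0.93, edgeR adjusted p = 6.05e-05) and Atp5pd, a stalk subunit of the ATP synthase (75.6 CPM, against 133 CPM; -0.81).

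Serum-free vesicles were higher than serum vesicles in many nuclear subunits, while no Mt- row passed. Of the 75 nuclear rows 30 were higher and 1 lower in serum-free vesicles, where 24.4% of all tested genes were called, 12.9% higher and 11.5% lower. The median log2 fold change was 0.35, beside 0.02 over all genes. Fitted on these 2 groups alone, the calls in either direction were 15. The higher calls were 10 of complex I, 2 of complex II, 3 of complex III, 7 of complex IV and 8 of complex V. Of the 13 Mt- rows 0 passed in edgeR and 0 in DESeq2, 1 had an unadjusted edgeR p under 0.05, and the median log2 fold change was 0.10. Their log2 fold changes ran from -0.46 to 0.43, and rows that did not pass are not shown to be equal.

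Cox7b, a small subunit of complex IV, had 102, 109 and 101 CPM in serum-free vesicles, against 59.8, 56.1 and 43.8 CPM in serum vesicles. The log2 fold change was 0.96 (edgeR adjusted p = 0.000204). Normal cells, with 82.6, 62.0 and 96.0 CPM, lay between the 2 kinds of vesicle. Sdhc, a membrane anchor of complex II, had 75.7, 82.8 and 83.7 CPM in serum-free vesicles, against 50.2, 39.5 and 47.7 CPM in serum vesicles, a log2 fold change of 0.82 (edgeR adjusted p = 5.9e-05). Cox7a2l, known for joining complexes III and IV, averaged 183 CPM in serum-free vesicles, against 104 CPM in serum vesicles (0.81, edgeR adjusted p = 4.69e-05). Atp5f1b, the catalytic beta subunit of the ATP synthase, had 1277, 1311 and 1391 CPM in serum-free vesicles, against 965, 847 and 726 CPM in serum vesicles, a log2 fold change of 0.65 (edgeR adjusted p = 0.000453). The 1 gene lower in serum-free vesicles was Ndufa9, by a log2 value of -0.49 (edgeR adjusted p = 0.0457). Its call was lost without any serum vesicle library or without serum-free vesicle library 2 or 3 (edgeR adjusted p from 0.0682 to 0.193), and without the filter (0.16), with unstranded counts (0.058) and on these 2 groups alone (0.155).

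Among subunits with isoforms, Cox4i1, the common form of the regulatory subunit of complex IV, had 61.8, 62.5 and 59.1 CPM in serum-free vesicles, 49.3, 46.9 and 50.3 CPM in serum vesicles, and 56.5, 56.8 and 58.0 CPM in normal cells. Its counterpart Cox4i2, known for hypoxic and lung tissue, had 36 counts over all 18 libraries and was not tested. Cox6b2, known from testis, had 1.37, 4.04 and 1.84 CPM in serum vesicles, against 0.718, 0.768 and 0.454 CPM in normal cells (log2 fold change 1.92, edgeR adjusted p = 0.0354). The call was lost without any 1 normal library (edgeR adjusted p from 0.0695 to 0.122) or without serum vesicle library 2 (0.221). The muscle and heart forms Cox6a2, Cox7a1 and Cox8b held 1, 6 and 0 counts over all libraries. Other rows under the filter were Cox7b2 with 77 counts, Atp5pb with 55, Ndufa4l2 with 5, Cox8c with 4, Ndufs6 with 2, and Ndufa1 and Ndufa10l1 with 0. Atp5pb, Ndufa1 and Ndufs6 encode subunits known from all tissues, and nothing is read here from their low counts.

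Mt- rows were higher in sorted than in unsorted vacuolated cells of the same CHIR99021 dose. Against unsorted CHIR99021 cells, sorted cells were higher in 11 of 13 Mt- rows and lower in 0, where 11.7% of all tested genes were called, 6.69% higher and 5.05% lower. The median log2 fold change was 1.17. Mt-nd3 and Mt-nd6 did not pass, and the call of Mt-atp8 was lost without unsorted library 1 or 2 or sorted library 1 (edgeR adjusted p from 0.0645 to 0.0729). Of nuclear rows 10 were higher and 2 lower, with 25 calls in either direction when these 2 groups were fitted alone and 7 without unsorted library 1. The highest fold changes were those of Uqcrb (log2 fold change 2.29, edgeR adjusted p = 9.66e-07), Ndufa3 (1.68), Cox5a (1.32), Atp5mc3 (1.12) and Ndufb11 (1.05), and the lower genes were Ndufa9 (-0.53, edgeR adjusted p = 0.0357) and Ndufs3 (-0.46, edgeR adjusted p = 0.0299). Either of these lower calls was lost on leaving out any of 5 of the 6 libraries, and without the filter (edgeR adjusted p = 0.103 and 0.0763).

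Unsorted CHIR99021 cells gave few calls in these rows. In unsorted CHIR99021 cells 1 Mt- row, Mt-nd4, was higher (9.56 CPM, against 3.36 CPM in normal cells; log2 fold change 1.47, edgeR adjusted p = 0.00261), where 7.62% of all tested genes were called, 4.49% higher and 3.13% lower. The nuclear calls were 0 higher and 2 lower, Ndufb11 (-0.62, edgeR adjusted p = 0.0296) and Atp5mc3 (-0.41, edgeR adjusted p = 0.0402), and no more than 1 was left when any single library was left out. Fitted on these 2 groups alone the calls were 3 Mt- and 9 nuclear rows, and with DESeq2 2 and 5. Unsorted CHIR99021 library 3, of passage 51, had the lowest Mt- sum of its group.

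In BCS cells 5 Mt- rows were higher and 0 lower, where 20.7% of all tested genes were called, 11.2% higher and 9.51% lower. These were Mt-nd4 (log2 fold change 1.21, edgeR adjusted p = 0.00661), Mt-nd2 (1.08, edgeR adjusted p = 0.00257), Mt-nd4l (0.78, edgeR adjusted p = 0.0174), Mt-atp6 (0.61, edgeR adjusted p = 0.0234) and Mt-nd6 (0.54 ± 0.16 SE, edgeR adjusted p = 0.0206). The number of calls ran from 1 without BCS library 3 to 6 without BCS library 2, and was 2 without normal library 2 or BCS library 1 and 3 without normal library 1 or 3. Mt-nd6 was called in BCS cells and in no other group, but a test of that difference between groups was not run. Its call was lost without BCS library 1 (edgeR adjusted p = 0.133), BCS library 3 (0.0513), normal library 1 (0.0616) or normal library 2 (0.0696).

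Nuclear rows in BCS cells were called in 1 direction: 0 of the 75 tested were higher and 16 lower. Over all tested genes 11.2% were called higher and 9.51% lower. Of the 16 rows 7 belong to complex I, 2 to complex II, 2 to complex III and 5 to complex V. The count was 7 without normal library 1, 9 without normal library 3 or BCS library 3 and 6 without BCS library 1. The lowest was Ndufs1, an iron-sulfur subunit of complex I (61.3 CPM in BCS cells, against 119 CPM in normal cells; log2 fold change -0.94, edgeR adjusted p = 0.00249). The next was Sdhb, the iron-sulfur subunit of complex II (44.7 CPM, against 75.1 CPM; -0.74, edgeR adjusted p = 0.00201). Ndufa10 (-0.74, edgeR adjusted p = 0.000453), the Rieske iron-sulfur protein Uqcrfs1 (54.7 CPM, against 85.1 CPM; -0.64, edgeR adjusted p = 0.00286) and Atp5mc1 (21.7 CPM, against 32.9 CPM; -0.60, edgeR adjusted p = 0.0183) followed. The last of these was not called without normal library 3 or BCS library 1 (edgeR adjusted p = 0.0915 and 0.109). In sorted cells Uqcrfs1 was called higher than in normal cells (113 CPM, against 85.1 CPM; 0.41, edgeR adjusted p = 0.0336). The libraries overlapped, and the call was lost on leaving out any of 5 of the 6. Sorted and BCS cells were not compared by a test.

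Lists of genes of the mitochondrial ribosome and of protein import into mitochondria were written from background knowledge. Where their genes passed, most were lower in vesicles, sorted cells and BCS cells. List counts are to be read against all tested genes, of which 30.2% were called higher and 27.5% lower in serum-free vesicles, 31.7% and 28.8% in serum vesicles, 14.4% and 11.5% in sorted cells, 4.49% and 3.13% in unsorted CHIR99021 cells, and 11.2% and 9.51% in BCS cells. Of 74 tested proteins of the mitochondrial ribosome, which translates the 13 Mt- messengers, 6 were higher and 31 lower in serum-free vesicles, 6 and 54 in serum vesicles, 4 and 27 in sorted cells, 0 and 5 in unsorted CHIR99021 cells, and 0 and 30 in BCS cells. The list's median log2 fold change was -0.35 in serum-free vesicles, -0.75 in serum vesicles, -0.38 in sorted cells, -0.11 in unsorted CHIR99021 cells and -0.40 in BCS cells. Mrpl54 had 30.4 CPM in serum-free vesicles, 22.0 CPM in serum vesicles and 36.7 CPM in sorted cells, against 73.3 CPM in normal cells (log2 fold changes -1.27 and -1.72 in vesicles). Mrps26 went the other way in vesicles, with 89.5 and 64.8 CPM, against 40.8 CPM in normal cells. Of 27 tested genes of protein import, 1 was higher and 17 lower in serum-free vesicles, 0 and 22 in serum vesicles, and 2 and 11 in sorted cells, with median log2 fold changes of -0.50, -0.84 and -0.35 and the same shares over all genes. Import genes numbered 1 higher and 0 lower in unsorted CHIR99021 cells and 0 and 12 in BCS cells, with medians of -0.05 and -0.36. Tomm70, an import receptor, averaged 89.3 CPM in serum-free vesicles and 86.4 CPM in serum vesicles, against 248 CPM in normal cells (-1.47 and -1.52).

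Of 48 tested assembly factors of the respiratory complexes, 12 were higher and 16 lower in serum-free vesicles, 9 and 20 in serum vesicles, and 3 and 11 in sorted cells. In serum-free vesicles these are near the 30.2% higher and 27.5% lower of all genes. The shares over all genes were 31.7% and 28.8% in serum vesicles and 14.4% and 11.5% in sorted cells. The list's median log2 fold changes were -0.15, -0.32 and -0.24. Unsorted CHIR99021 cells had 1 higher and 3 lower, with a median of -0.08, and BCS cells 3 and 14, with a median of -0.35. Over all genes 4.49% were higher and 3.13% lower in unsorted CHIR99021 cells, and 11.2% and 9.51% in BCS cells. Cox15, which makes the heme of complex IV, averaged 19.3 CPM in serum-free vesicles and 15.1 CPM in serum vesicles, against 3.81 CPM in normal cells (log2 fold changes 2.31 and 1.96). Uqcc2, an assembly factor of complex III, averaged 11.5, 11.4 and 20.6 CPM in serum-free vesicles, serum vesicles and sorted cells, against 39.9 CPM in normal cells (-1.80, -1.80 and -0.95; edgeR adjusted p = 1.08e-09, 1.31e-09 and 5.74e-05).

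Of 38 tested genes for expression and copying of mitochondrial DNA, 3 were higher and 14 lower in serum-free vesicles, 2 and 15 in serum vesicles, and 1 and 4 in sorted cells. Of all genes 30.2%, 31.7% and 14.4% were higher and 27.5%, 28.8% and 11.5% lower, the last near the list's share in sorted cells. The list's median log2 fold changes were -0.31, -0.29 and -0.16. Tfam, which packs mitochondrial DNA and starts its transcription, averaged 67.0 CPM in serum-free vesicles, 48.3 CPM in serum vesicles, 82.1 CPM in sorted cells, 112 CPM in unsorted CHIR99021 cells and 103 CPM in BCS cells, against 110 CPM in normal cells. It fell in the first 3 groups by log2 values of -0.71, -1.17 and -0.42 (edgeR adjusted p = 0.000148, 1.88e-07 and 0.0304). Lrpprc, which stabilises mitochondrial messengers, averaged 43.8 and 49.9 CPM in serum-free and serum vesicles, against 88.9 CPM in normal cells (-1.03 and -0.83). Polrmt, the mitochondrial RNA polymerase, averaged 5.24, 6.93 and 8.43 CPM in serum-free vesicles, serum vesicles and sorted cells, against 7.52 CPM in normal cells, and did not pass in any of these.

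Of 14 tested regulators of mitochondrial biogenesis, 2 were higher and 9 lower in serum-free vesicles, 2 and 7 in serum vesicles, and 4 and 2 in sorted cells. Over all genes 30.2%, 31.7% and 14.4% were higher and 27.5%, 28.8% and 11.5% lower, the last near the list's share in sorted cells. The list's median log2 fold changes were -0.52, -0.39 and 0.08. Nrf1, a transcription factor of respiratory genes, averaged 13.8, 14.9 and 21.5 CPM in serum-free vesicles, serum vesicles and sorted cells, against 30.3 CPM in normal cells (edgeR adjusted p = 2.53e-06, 1.07e-05 and 0.0222). Gabpa, another, averaged 53.5 and 63.7 CPM in serum-free and serum vesicles, against 130 CPM in normal cells (edgeR adjusted p = 2.92e-09 and 9.24e-08). Ppargc1a, the coactivator of these factors, had 223 counts in serum-free vesicles and 213 in serum vesicles, against 0 in normal cells. It was at least 58.4-fold and 68.2-fold higher by a floor of 3 counts over the normal group. Sorted cells held 4 counts of Ppargc1a, and unsorted CHIR99021 cells and BCS cells 0. Of 17 tested genes of the citric acid cycle, 3 were higher and 7 lower in each kind of vesicle and 2 and 1 in sorted cells. The shares over all genes were 30.2% higher and 27.5% lower in serum-free vesicles, 31.7% and 28.8% in serum vesicles, and 14.4% and 11.5% in sorted cells. The list's median log2 fold changes were -0.16 in serum-free vesicles, -0.24 in serum vesicles and 0.02 in sorted cells. Its first enzyme Cs averaged 125 CPM in serum-free vesicles, 91.5 CPM in serum vesicles, 95.8 CPM in sorted cells, 68.2 CPM in unsorted CHIR99021 cells and 71.6 CPM in BCS cells, against 36.9 CPM in normal cells, and passed in all 5 (log2 fold changes 1.75, 1.31, 1.38, 0.88 and 0.96).

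Of 17 tested genes of the hypoxia response and mitophagy, 10 were higher and 5 lower in serum-free vesicles, 10 and 4 in serum vesicles, 6 and 2 in sorted cells, 4 and 0 in unsorted CHIR99021 cells, and 8 and 0 in BCS cells. Of all genes 30.2%, 31.7%, 14.4%, 4.49% and 11.2% were higher in these groups, and the 5 lower in serum-free vesicles are near the 27.5% over all genes. The list's median log2 fold changes were 0.57, 0.60, 0.56, 0.26 and 0.35. Vegfa, a growth factor for vessels, averaged 65.1, 97.2, 37.3, 22.9 and 27.1 CPM in serum-free vesicles, serum vesicles, sorted cells, unsorted CHIR99021 cells and BCS cells, against 14.1 CPM in normal cells. Ldha, which makes lactate from pyruvate, went the other way in vesicles, with 850 CPM in serum-free vesicles and 405 CPM in serum vesicles, against 1132 CPM in normal cells (log2 fold changes -0.41 and -1.48; edgeR adjusted p = 0.025 and 1.81e-08). Between the 2 kinds of vesicle, serum-free vesicles were higher in 25 of the 74 ribosomal proteins and lower in 0, and higher in 9 of the 27 import genes and lower in 1, where 12.9% of all tested genes were higher and 11.5% lower.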

How the data were processed

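Total RNA depleted of ribosomal RNA was sequenced from 18 cultures as paired reads with a directional kit, per the labels' protocols. The deposited files hold raw counts per gene symbol, unstranded and for each strand, made by the authors with bcl2fastq, Trimmomatic 0.38 and STAR 2.6.1 on rn6, per the submitters' processing notes. The counting tool and annotation are not given in the sources used here. The strand that takes nearly all counts was used, and the other strand served for the opposite-strand values.

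Tests used edgeR 4.0.16 with limma 3.58.1 under R 4.3.3, and DESeq2 1.42.0 served as an alternative. Genes were filtered by group (minimum count 10), which left 11503, scaled by TMM and fitted with 1 mean per group over all 18 libraries (12 residual degrees of freedom, robust quasi-likelihood, biological coefficient of variation 16.1%). Calls had a Benjamini-Hochberg adjusted p under 0.05 over all genes in each of 7 comparisons. CPM are counts over TMM effective library sizes. Sums, ratios and opposite-strand values were not tested. The floor for a group at 0 counts is 3 counts over the group and covers counting error only. The code was tested on simulated data.

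Members, gene lists and alternatives were chosen with earlier results of these data known. Named were every Mt- row, in each comparison the 5 highest and the 5 lowest nuclear fold changes among called genes without overlap between libraries, a fixed set of isoforms and core subunits, and in each other list the 2 members of smallest adjusted p for each direction; not all are printed. Alternatives were DESeq2, its size factors in edgeR, TMM without the Mt- rows and the dominating pair, no filter, unstranded counts, the 2 compared groups alone, a replicate block, passage as a covariate and leaving out each library.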

Additional observations from a re-analysis of the deposited data

Results flagged for a closer look

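The reads on the strand opposite to the Mt-nd6 row, which the tests on the row's own strand leave out, were higher than in normal cells in all 3 libraries of 3 groups. They averaged 1189 CPM in serum-free vesicles, 976 CPM in serum vesicles and 659 CPM in sorted CHIR99021 cells, against 208 CPM in normal cells. They averaged 223 CPM in unsorted CHIR99021 cells and 232 CPM in BCS cells.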

How the results depend on the processing

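The calls of Mt- rows in vesicles and in sorted cells stayed within 1.5 times their number under all alternatives run. In unsorted CHIR99021 cells against normal cells, the 1 called Mt- row became 2 with DESeq2, 4 without the filter and 3 with the 2 groups alone (1 to 2 with libraries left out), and the 2 nuclear calls became 5 with DESeq2 and 9 with the 2 groups alone (0 to 1 with libraries left out). In BCS cells the 5 Mt- calls ran from 1 to 6 with libraries left out, and the 16 nuclear calls were 10 without the filter and ran from 6 to 19. With the 2 groups alone, nuclear calls were 29 in sorted against normal cells (19 in the fit to all groups), 25 in sorted against unsorted cells (12, with 7 to 10 when libraries were left out) and 15 in serum-free against serum vesicles (31). In that last comparison Mt- calls were 4 without the filter and 0 to 2 with libraries left out. The log2 difference of the Mt- to nuclear ratio was 1.5, 1.89 and 1.58 by medians of rows and 1.60, 1.89 and 1.52 without the most abundant rows, for serum-free vesicles, serum vesicles and sorted cells. The causes of these shifts were not tested.

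Residuals of libraries with the same replicate number correlated between -0.149 and 0.087. Some of these libraries share a passage. Libraries 1 and 3 of normal and of unsorted CHIR99021 cells were at passages 37 and 51. Libraries 1 and 2 of both kinds of vesicle were at passages 32 and 35. Whether such libraries were grown in parallel was not tested, and residuals around means of 3 libraries cannot exclude it. With the replicate block, nuclear calls in unsorted CHIR99021 cells numbered 1, and no other count moved by over 1.5 times. The block put the adjusted p of Mt-nd3 in sorted cells at 0.0541, of Cox6b2 in serum vesicles at 0.0514 and of Ndufa9 between the vesicles at 0.0523.

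The log2 fold changes that turned sign were small and not called. Mt-nd6 in serum vesicles was -0.01442 without the filter, -0.005558 with the 2 groups alone and -0.02394 with passage as a covariate, and in unsorted CHIR99021 cells -0.001285 with TMM without the Mt- rows. Mt-nd5 in unsorted CHIR99021 cells was -0.03169 with unstranded counts. Between serum-free and serum vesicles without the filter, Mt-atp8 was 0.004928 and Mt-nd4 0.002175. The opposite-strand share of BCS minus normal cells was 0.629 percentage points on summed counts and -1.2 as a mean over rows. With libraries left out, the lowest and highest values for unsorted CHIR99021 cells were -0.01078 and 0.1914 for Mt-co3, -0.1491 and 0.2957 for Mt-nd3, -0.0317 and 0.2352 for Mt-nd5, and -0.07897 and 0.08798 for Mt-nd6. For BCS cells they were -0.1054 and 0.5653 for Mt-atp8 and -0.1413 and 0.2866 for Mt-nd3. For Mt-nd6 they were -0.1423 and 0.1951 in serum-free vesicles, -0.1538 and 0.1121 in serum vesicles, -0.03259 and 0.1295 in sorted cells, -0.04472 and 0.1555 in sorted against unsorted cells, and -0.152 and 0.2096 in serum-free against serum vesicles. In that last comparison they were -0.03517 and 0.2213 for Mt-atp6, -0.1593 and 0.126 for Mt-atp8, and -0.1255 and 0.07865 for Mt-nd4. Counting error is largest for rows with few counts, such as Mt-nd4 in normal cells with 60.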
